A study of Mus musculus with 6 samples.

Results

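The BCL2 family of apoptosis regulators was examined as 10 genes, taken as the rows of the deposited expression table whose gene name was Bcl2, Bcl2l1, Mcl1, Bcl2l11, Bid, Bad, Bax, Bak1, Bbc3 or Pmaip1. All 10 were found, each once, among 55487 genes, and all 10 passed the filter on low counts. The RNA was poly-A selected from LSK cells, which are marrow cells without lineage markers that carry Sca-1 and Kit and include blood stem cells and early progenitors. The series has 3 libraries from Mc5r-/- mice, which lack the melanocortin 5 receptor, and 3 from wild-type littermates. The series describes both genotypes as irradiated, so the controls carry the irradiation too. No dose, time after irradiation, age, sex or mutant allele design is given in the sources used here, nor how many animals went into a library, so a p-value here covers only library-to-library spread, part or all of which may be technical.

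Proteins of this family decide whether the outer mitochondrial membrane is breached, the step that commits most cells to intrinsic apoptosis. The anti-apoptotic members BCL2, BCL-XL (from Bcl2l1) and MCL1 hold the effectors BAX and BAK (from Bak1) in check, and the effectors form the pores through which cytochrome c escapes. The BH3-only members BIM (from Bcl2l11), BID, BAD, PUMA (from Bbc3) and NOXA (from Pmaip1) sense damage or loss of growth factor and either neutralise the anti-apoptotic members or activate the effectors. In mice, haematopoietic stem cells depend on MCL1 for survival, and PUMA is a main mediator of p53-dependent death of blood progenitors after irradiation.

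Of the 10 genes, 1 rose and 3 fell in Mc5r-null LSK cells. Bcl2l11, which encodes BIM, rose 1.63-fold, while Bbc3, which encodes PUMA, fell 1.44-fold, the BH3-only gene Bid fell 1.24-fold and the effector gene Bak1 fell 1.19-fold. None of the 3 anti-apoptotic genes passed the test in either direction. A gene was called at a Benjamini-Hochberg adjusted p under 0.05 in edgeR's quasi-likelihood test over all genes. Among the 15257 genes tested, 16.8% were called higher and 16.1% lower in Mc5r-null, 32.9% in all, so 4 called members of 10 are close to the share called among all genes. The members' median log2 fold change was -0.17, against -0.00474 over all genes tested, and their median absolute log2 fold change was 0.28, against 0.18.

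Promoter sequences are shown for Bcl2l11 and Bbc3 because these genes encode the family's BH3-only proteins with the largest called differences, and the differences run in opposite directions. RefSeq promoter windows on GRCm38.p6 were read for 9 of the 10 genes, 15 windows in all, each with 250 bases before and 50 after an annotated start. Pmaip1 was left out of this search, so the counts of member windows below do not cover it. One window of each of these 2 genes holds the letters GTAAACA, a core binding motif of FOXO transcription factors, on 1 of its strands. Those windows were picked for display because they hold these letters, and the genes' other windows, which lack them, are not shown. The 250 bases before the start are given 5′ to 3′ on the gene's strand, with that motif or its reverse complement in capitals.
Bcl2l11, chr2:128125788-128126037, plus strand: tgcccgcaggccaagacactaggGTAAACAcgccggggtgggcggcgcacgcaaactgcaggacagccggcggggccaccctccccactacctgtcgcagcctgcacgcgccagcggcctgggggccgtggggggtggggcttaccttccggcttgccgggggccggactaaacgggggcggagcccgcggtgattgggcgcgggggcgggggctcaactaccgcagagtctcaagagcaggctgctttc
Bbc3, chr7:16310011-16310260, plus strand: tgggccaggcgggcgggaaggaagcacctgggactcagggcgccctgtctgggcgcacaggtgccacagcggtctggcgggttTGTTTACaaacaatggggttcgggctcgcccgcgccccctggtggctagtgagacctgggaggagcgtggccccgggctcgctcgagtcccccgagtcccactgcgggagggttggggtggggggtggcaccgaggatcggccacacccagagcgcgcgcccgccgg

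The Bcl2l11 motif lies at bases -227 to -221 from the start, on the gene's own strand, and the Bbc3 motif at bases -167 to -161, on the opposite strand. The Bcl2l11 stretch shown ends immediately before the gene's first annotated base, whereas the Bbc3 stretch precedes a start inside the gene. Searched on both strands, GTAAACA was present in 2 of the 15 member windows and in 3.65% of all 32851 RefSeq windows. The p53 half-site consensus was present in 1 member window, that of Bax, and in 8.36% of all windows, and the E-box CACGTG in 2 member windows, of Bax and Bbc3, and in 7.15% of all. The GC box GGGCGG was present in 10 of the 15, from 7 of the 9 genes, against 35.7% of all windows. Genes with several windows count more than once in these numbers, and windows of Bbc3 overlap in part. Such matches describe the letters in these windows and do not show that a factor binds there. The members' windows held 49.3% to 78.0% G and C, against a median of 52.7% over all windows, with the lowest of them at Bcl2l1.

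Levels were compared between genes on the deposited FPKM scale, which divides by a length for each gene. The lengths used are not given and were not checked, and the order of genes depends on them. In Mc5r-null, Bcl2l11 had 520 to 533 raw counts and Bbc3 368 to 405, the reverse of their FPKM order. In wild type their order was the same on both scales. Mcl1, whose protein is short-lived and is kept up by growth factors, stood far above the rest, at 166, 167 and 163 FPKM in the Mc5r-null libraries and 171, 171 and 173 FPKM in the wild-type libraries (replicates 1, 2 and 3 here and below). It supplied 69.1 ± 0.754% of the family's summed FPKM in Mc5r-null and 65.8 ± 1.13% in wild type (SD, n = 3 each). The effectors followed, Bak1 at 19.9 ± 0.446 FPKM in Mc5r-null and 24.3 ± 0.192 FPKM in wild type, and Bax at 16.4 ± 0.801 FPKM in Mc5r-null and 17.7 ± 2.09 FPKM in wild type (SD, n = 3 each).

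The middle of the order differed between genotypes. In Mc5r-null libraries Bcl2, Bid and Bbc3 followed at 9.53 ± 0.480, 9.37 ± 0.630 and 9.21 ± 0.419 FPKM (SD, n = 3), and neighbours among these 3 overlapped in their ranges. In wild-type libraries the order was Bbc3 at 13.6 ± 0.803 FPKM, Bid at 11.9 ± 0.626 FPKM and Bcl2 at 8.93 ± 0.549 FPKM (SD, n = 3), with no overlap between neighbours. By their means, Pmaip1, Bad, Bcl2l11 and Bcl2l1 made up the low end in both genotypes. In wild type the range of Pmaip1 overlapped that of Bcl2, through replicate 2 at 9.87 FPKM. In Mc5r-null the range of Pmaip1 overlapped those of Bad and Bcl2l11. Bcl2l1 was last, at 1.02 ± 0.0849 FPKM in Mc5r-null and 1.49 ± 0.377 FPKM in wild type (SD, n = 3 each). In wild type its range overlapped that of Bcl2l11, and in Mc5r-null it did not.

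**Figure D1:**
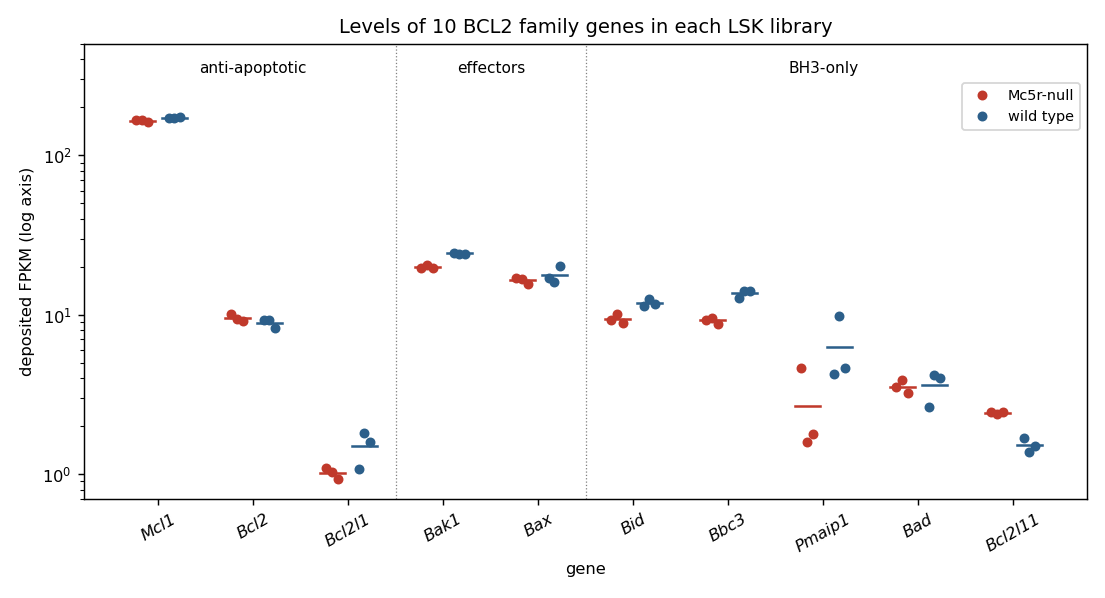
Deposited FPKM (log axis) of the 10 genes in each of the 3 Mc5r-null and 3 wild-type libraries, grouped by role, with points for libraries and lines for genotype means. Mcl1 lies above 160 FPKM in every library and the other 9 genes lie below 25 FPKM. Pmaip1 has the widest spread within each genotype.

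Differences between genotypes are given below on the scale of normalised CPM, CPM of a library's total after edgeR's TMM scaling. The BH3-only genes moved in different directions. Bcl2l11 encodes BIM, a strong activator of apoptosis when growth factors are withdrawn, and lies on GRCm38 chromosome 2 at 128126038 to 128162547 on the plus strand. It had 38.5, 37.6 and 38.4 normalised CPM in Mc5r-null, against 25.9, 21.2 and 23.1 in wild type. Every Mc5r-null library was above every wild-type one. The log2 fold change was 0.71 ± 0.0768 (SE), with an edgeR adjusted p of 0.000231. Its raw counts were 533, 520 and 532 in Mc5r-null and 391, 319 and 348 in wild type.

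Bbc3 encodes PUMA, a p53 target that binds all the anti-apoptotic members, and lies on chromosome 7 at 16308393 to 16318205 on the plus strand. It had 28.4, 29.3 and 26.6 normalised CPM in Mc5r-null, against 37.8, 42.0 and 41.9 in wild type. The groups did not overlap, with all Mc5r-null libraries lower. The log2 fold change was -0.53 ± 0.0649 (SE), with an edgeR adjusted p of 0.000449. Within a library, the FPKM of Bcl2l11 was 0.262, 0.249 and 0.280 of that of Bbc3 in Mc5r-null and 0.133, 0.0976 and 0.107 of it in wild type. This ratio restates the opposite differences of the 2 genes, depends in size on the lengths behind FPKM, and was not tested.

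Bid encodes the BH3-only protein that caspase-8 cleaves to link death receptors to mitochondria, and lies on chromosome 6 at 120891930 to 120916853 on the minus strand. It had 51.2, 55.8 and 48.6 normalised CPM in Mc5r-null, against 61.6, 68.0 and 62.8 in wild type. All Mc5r-null libraries were below all wild-type ones. The log2 fold change was -0.31 ± 0.0625 (SE), with an edgeR adjusted p of 0.00633. Its locus overlaps Bcl2l13 on the other strand, and although the library kit keeps strand, the sources used here do not say whether the counting did, so reads in the overlap cannot be assigned. Bcl2l13 itself, at 82.4 ± 3.69 normalised CPM in Mc5r-null and 87.0 ± 4.56 in wild type (SD, n = 3 each), was not called (edgeR adjusted p = 0.277).

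Bad, whose protein is inactivated by growth factor kinases, lies on chromosome 19 at 6941861 to 6951899 on the plus strand. It had 23.7, 26.5 and 21.9 normalised CPM in Mc5r-null and 17.4, 27.9 and 26.4 in wild type. The ranges overlapped, and wild-type replicate 1 was the lowest library of all. The locus overlaps Gpr137 on the other strand, which had 215 to 290 counts in Mc5r-null and 269 to 320 in wild type, against 303 to 367 in Mc5r-null and 262 to 421 in wild type for Bad, and the limit on assigning reads given for Bid holds here too. Bad was not called (log2 fold change 0.0086 ± 0.191 SE, edgeR adjusted p = 0.979). Its 95% interval ran from 72.6% to 139% of the wild-type level, so differences inside those bounds were not resolved. The sign of this value turned without Mc5r-null replicate 2 or wild-type replicate 1.

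Pmaip1 encodes NOXA, a p53 target that binds MCL1, and lies on chromosome 18. It had 28.7, 9.90 and 10.97 normalised CPM in Mc5r-null and 25.6, 59.8 and 28.2 in wild type. In Mc5r-null replicate 1 stood far above the other 2 libraries, and in wild type replicate 2 did, while the remaining wild-type libraries lay close to that Mc5r-null one. The log2 fold change was -1.19 ± 0.622 (SE) and was not called (edgeR adjusted p = 0.227). The 95% interval ran from 13.6% to 140% of the wild-type level. Without Mc5r-null replicate 1 the value was -1.86 (edgeR adjusted p = 0.101) and without wild-type replicate 2 it was -0.70 (edgeR adjusted p = 0.476), so single libraries moved it by more than 1.5 times with no call either way.

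Of the effectors, Bak1 was lower. It lies on chromosome 17 at 27019810 to 27029009 on the minus strand, and had 91.8, 95.9 and 91.7 normalised CPM in Mc5r-null, against 112, 111 and 111 in wild type. The gap between the groups was several times the spread within either. The log2 fold change was -0.26 ± 0.0320 (SE), with an edgeR adjusted p of 0.000494. Its locus overlaps Ggnbp1 on the other strand, with the same limit on assigning reads, and Ggnbp1 had 34 to 80 counts in Mc5r-null and 49 to 59 in wild type, against 1270 to 1327 in Mc5r-null and 1666 to 1696 in wild type for Bak1. Bax, on chromosome 7 at 45461697 to 45466898 on the minus strand, had 44.7, 43.8 and 40.5 normalised CPM in Mc5r-null and 43.7, 41.1 and 51.3 in wild type. Its groups overlapped and it was not called (log2 fold change -0.08 ± 0.0849 SE, edgeR adjusted p = 0.535, 95% interval 82.8% to 109% of the wild-type level). Without wild-type replicate 3, the highest library, its sign turned (log2 fold change 0.018).

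The anti-apoptotic genes gave no call. Mcl1, on chromosome 3 at 95658788 to 95663176 on the plus strand, was the most tightly measured member. It had 679, 682 and 663 normalised CPM in Mc5r-null, against 683, 683 and 691 in wild type. The groups lay next to each other without overlapping, a difference of log2 fold change -0.024 ± 0.0177 (SE; edgeR adjusted p = 0.352). The 95% interval ran from 95.7% to 101% of the wild-type level.

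Bcl2, the founding member and a survival gene of lymphoid cells, lies on chromosome 1 at 106538178 to 106714274 on the minus strand. It had 103, 95.2 and 93.0 normalised CPM in Mc5r-null, against 91.8, 91.9 and 82.3 in wild type. All Mc5r-null libraries were above all wild-type ones, yet the adjusted p missed the threshold (log2 fold change 0.13 ± 0.0552 SE, edgeR adjusted p = 0.112, unadjusted p = 0.0476). The 95% interval was 100.1% to 119% of the wild-type level. Single libraries moved the log2 fold change by more than 1.5 times, to 0.085 without Mc5r-null replicate 1 and 0.074 without wild-type replicate 3.

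Bcl2l1, which encodes BCL-XL and is needed for the survival of maturing red cells and platelets, lies on chromosome 2 at 152780668 to 152831728 on the minus strand. It had 13.2, 12.4 and 11.1 normalised CPM in Mc5r-null and 12.7, 21.3 and 18.8 in wild type. Wild-type replicate 1 fell among the Mc5r-null libraries and the other 2 wild-type libraries were higher. It was not called (log2 fold change -0.52 ± 0.194 SE, edgeR adjusted p = 0.0861). Leaving out wild-type replicate 1 made it a called gene, with a log2 fold change of -0.71 (edgeR adjusted p = 0.00285), and across the other alternatives the adjusted p lay above the threshold.

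**Figure D2:**
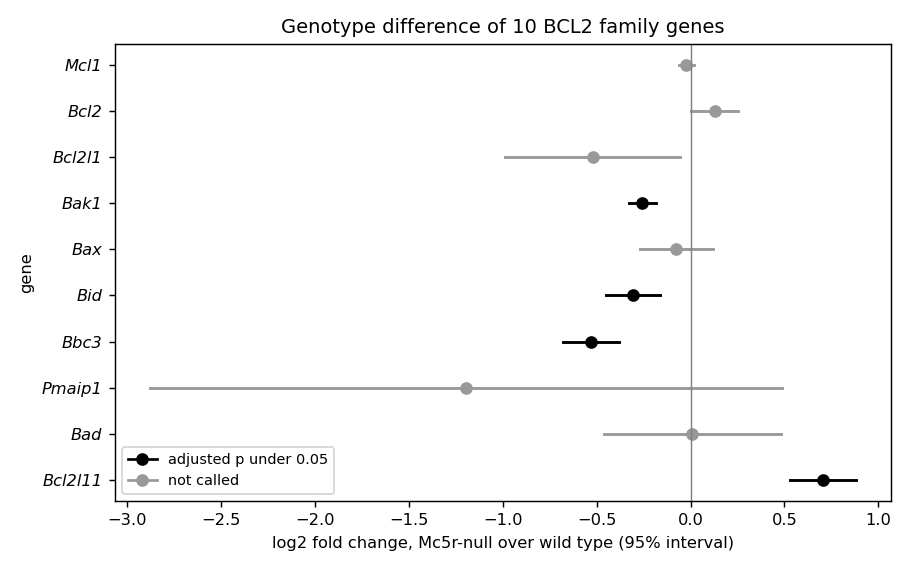
Log2 fold change of Mc5r-null over wild type for each of the 10 genes, with 95% intervals of the edgeR fit, black where the adjusted p was under 0.05. Bcl2l11 at 0.71 is the called gene to the right of 0, and Bbc3, Bid and Bak1 lie to its left. The interval of Pmaip1 is the widest and that of Mcl1 the narrowest.

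In all, 6 member genes, 2 higher (Bcl2l11 and Bcl2) and 4 lower (Mcl1, Bid, Bak1 and Bbc3), had groups that did not overlap, against 48.2% of all genes tested (24.2% higher and 24.1% lower). Mcl1 separated only barely, with a highest Mc5r-null value of 682.3 and a lowest wild-type value of 682.9 normalised CPM. Summed over roles on the FPKM scale, the BH3-only genes gave 29.1, 27.5 and 25.03 in Mc5r-null and 32.6, 42.1 and 35.9 in wild type. The effectors gave 36.7, 37.0 and 35.2 in Mc5r-null and 41.6, 40.3 and 44.2 in wild type, and the anti-apoptotic genes 177, 177 and 173 in Mc5r-null and 182, 182 and 183 in wild type. The anti-apoptotic sum was thus 2.70, 2.74 and 2.87 times the sum of all pro-apoptotic members in Mc5r-null and 2.45, 2.21 and 2.29 times in wild type. These sums are dominated by Mcl1 on one side and include the uneven Pmaip1 on the other. They depend on the lengths behind FPKM and were not tested.

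The members differed in how closely the libraries of 1 genotype agreed. The chi-square of the 3 counts divided by its degrees of freedom, which is near 1 when only counting noise is present, was 0.652 for Bak1 in Mc5r-null and 0.105 in wild type. For Mcl1 it was 1.41 in Mc5r-null and 0.566 in wild type, so Bak1 and Mcl1 varied about as little as counting allows. This did not hold for every well-counted member. For Bcl2, with 1240 to 1421 counts, it was 3.40 in Mc5r-null and 5.04 in wild type. For Bax it was 1.41 in Mc5r-null and 9.50 in wild type. For Bcl2l11 it was 0.137 in Mc5r-null and 3.65 in wild type. It reached 93.5 in Mc5r-null and 144 in wild type for Pmaip1. For Bad it was 2.91 in Mc5r-null and 20.7 in wild type, and for Bcl2l1 1.18 in Mc5r-null and 17.0 in wild type. At the wild-type counts of Bcl2l1, counting alone would give an SD of 6.14% of the mean, and the observed SD was 25.3%.

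**Figure D3:**
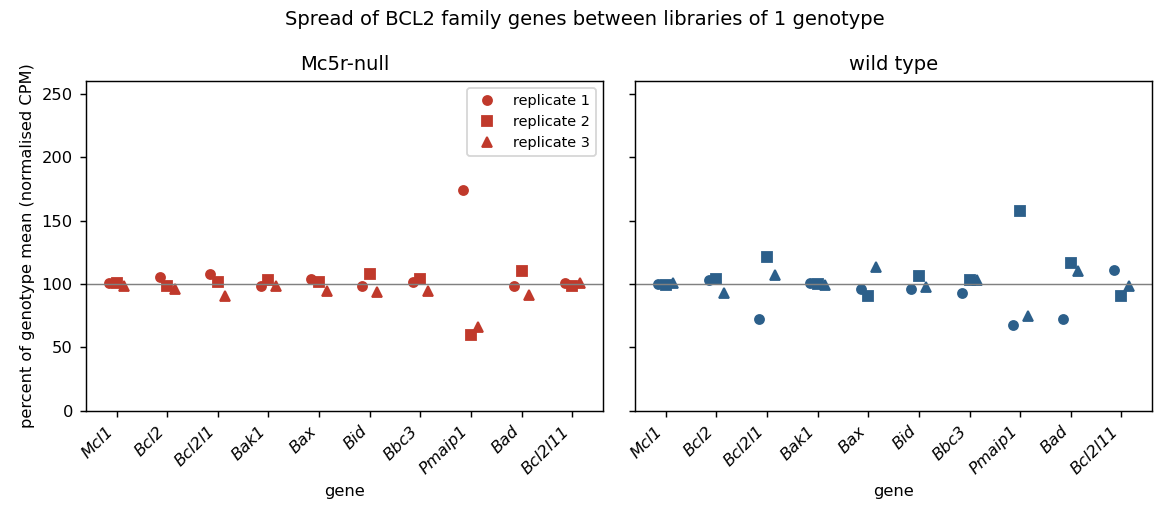
Normalised CPM of the 10 genes in each library as a percent of the genotype mean, with Mc5r-null on the left, wild type on the right and a marker shape for each replicate number. Most libraries lie close to 100. Pmaip1 departs in both genotypes, through replicate 1 in Mc5r-null and replicate 2 in wild type, and wild-type replicate 1 is low for both Bcl2l1 and Bad.

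Beyond the 10 members, 16 other genes of the extended family were read, of which 8 passed the filter. Of these, 2 were higher and none lower in Mc5r-null, against 16.8% and 16.1% of all genes tested. Their median log2 fold change was -0.05. Bmf, a BH3-only gene tied to the cytoskeleton and induced by some of the stresses that induce Bcl2l11, had 5.27, 5.42 and 6.21 normalised CPM in Mc5r-null, against 3.25, 2.65 and 3.85 in wild type (log2 fold change 0.79 ± 0.161 SE, edgeR adjusted p = 0.00613). Bok, an effector-like gene, had 3.82, 4.55 and 4.69 normalised CPM in Mc5r-null, against 3.65, 2.39 and 2.65 in wild type, a log2 fold change of 0.59 ± 0.186 (SE; edgeR adjusted p = 0.0417). The Bok call was lost with DESeq2, with the replicate number as a block and without any 1 of Mc5r-null replicates 2 and 3 and wild-type replicates 2 and 3 (adjusted p between 0.0802 and 0.158). Bcl2a1c and Hrk had no count in any library. Bcl2a1a, Bcl2a1b and Bcl2a1d, near-identical copies between which reads can be split, had at most 12 counts in a library and did not pass the filter.

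Downstream of the family, genes of the apoptosome, the caspases and other mitochondrial death proteins were 0 higher and 5 lower of 17. The shares over all genes tested were 16.8% and 16.1%, and the list's median log2 fold change was -0.12. Cycs, which encodes cytochrome c, had 38.5, 41.9 and 43.6 normalised CPM in Mc5r-null, against 51.8, 52.5 and 52.5 in wild type (log2 fold change -0.34 ± 0.0549 SE, edgeR adjusted p = 0.00199). Apaf1, the scaffold that cytochrome c assembles into the apoptosome, had 56.3 ± 5.40 normalised CPM in Mc5r-null and 70.1 ± 4.06 in wild type (SD, n = 3 each; edgeR adjusted p = 0.0142, and 0.0595 with the replicate block). Endog, a mitochondrial nuclease gene, was the most changed of the list, at 6.67 ± 0.795 normalised CPM in Mc5r-null and 10.2 ± 1.72 in wild type (edgeR adjusted p = 0.0143). Vdac2, an outer membrane channel gene whose product binds BAK, fell 1.13-fold, and Aifm1, which encodes apoptosis-inducing factor, fell 1.18-fold. The initiator caspase gene Casp9, named after its values were seen, was at 17.1 ± 2.47 normalised CPM in Mc5r-null and 19.2 ± 1.98 in wild type (SD, n = 3 each) and was not called (edgeR adjusted p = 0.325). Diablo, which encodes an inhibitor of the IAP proteins and was likewise named afterwards, was at 49.7 ± 3.41 normalised CPM in Mc5r-null and 40.4 ± 5.27 in wild type (edgeR adjusted p = 0.0544). It was called higher with limma-voom, with the block and without wild-type replicate 2 (adjusted p = 0.0497, 0.0166 and 0.0164).

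In the death receptor pathway, which reaches the family through caspase-8 and BID, 9 of 10 genes were tested. Of these, 2 were higher and 2 lower, against 16.8% and 16.1% of all genes tested. The list's median log2 fold change was -0.06. The TRAIL receptor gene Tnfrsf10b had 7.57, 7.73 and 7.65 normalised CPM in Mc5r-null, against 4.24, 4.97 and 5.11 in wild type (log2 fold change 0.68 ± 0.112 SE, edgeR adjusted p = 0.00220). Its ligand gene Tnfsf10 had 33.5 ± 1.36 normalised CPM in Mc5r-null and 26.5 ± 0.391 in wild type (SD, n = 3 each; edgeR adjusted p = 0.00235). Receptor and ligand genes of TRAIL were thus both higher. The tumour necrosis factor receptor gene Tnfrsf1a fell 1.12-fold (edgeR adjusted p = 0.0115) and Casp8 fell 1.10-fold (edgeR adjusted p = 0.0201). Both calls were lost with DESeq2 (adjusted p = 0.0822 and 0.181), and that of Casp8 also without Mc5r-null replicate 1, Mc5r-null replicate 3 or wild-type replicate 2 (edgeR adjusted p between 0.0595 and 0.0618).

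Among 14 genes known to act on the family, 6 were higher and 2 lower, against 16.8% and 16.1% of all genes tested. The list's median log2 fold change was 0.06. The forkhead factors FOXO1 and FOXO3 are known activators of Bcl2l11 transcription. Foxo3 had 141, 151 and 148 normalised CPM in Mc5r-null, against 97.5, 93.7 and 97.9 in wild type (log2 fold change 0.61 ± 0.0358 SE, edgeR adjusted p = 5.64e-06). Foxo1 had 31.7, 27.9 and 29.0 normalised CPM in Mc5r-null, against 18.2, 16.2 and 18.6 in wild type (log2 fold change 0.74 ± 0.0815 SE, edgeR adjusted p = 0.000250). Both were higher in all 3 Mc5r-null libraries than in any wild-type library, as were Bcl2l11 and 24.2% of all genes tested. Bbc3, whose shown promoter window holds the same motif, was lower. Whether the differences of these genes are linked was not tested.

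The PIM kinases phosphorylate and inactivate BAD. Pim2 had 52.7, 51.0 and 51.5 normalised CPM in Mc5r-null, against 27.8, 27.2 and 27.6 in wild type (log2 fold change 0.91 ± 0.0467 SE, edgeR adjusted p = 2.25e-06). Pim1 rose 1.30-fold (edgeR adjusted p = 0.000235), and Pim3 was at 101 ± 2.89 normalised CPM in Mc5r-null and 103 ± 1.28 in wild type (SD, n = 3 each; edgeR adjusted p = 0.466). Of the genes for enzymes that set the stability of MCL1, the ubiquitin ligase gene Huwe1 rose 1.12-fold (edgeR adjusted p = 0.000578), while Fbxw7 and the deubiquitinase gene Usp9x were not called (edgeR adjusted p = 0.135 and 0.303). Ddit3, which encodes the stress factor CHOP, had 26.6, 26.7 and 25.3 normalised CPM in Mc5r-null, against 35.7, 36.3 and 34.4 in wild type (log2 fold change -0.44 ± 0.0547 SE, edgeR adjusted p = 0.000504). A second row of the table carries the name Ddit3, with 1 count in each library.

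Of the p53 axis, Trp53 was at 210 ± 11.4 normalised CPM in Mc5r-null and 187 ± 2.64 in wild type (SD, n = 3 each; edgeR adjusted p = 0.0121). Mdm2, a p53 target and inhibitor, was at 61.0 ± 1.398 in Mc5r-null and 68.0 ± 1.87 in wild type (edgeR adjusted p = 0.0180). Both calls were lost with DESeq2 (adjusted p = 0.0549 for Trp53 and 0.156 for Mdm2). That of Mdm2 was also lost without Mc5r-null replicate 1 or wild-type replicate 3 (edgeR adjusted p = 0.0541 and 0.0599). Among the members, the p53 target Bbc3 fell, and the p53 targets Bax and Pmaip1 were not called. This is not a full list of p53 targets among the members, and Bid also fell.

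**Figure D4:**
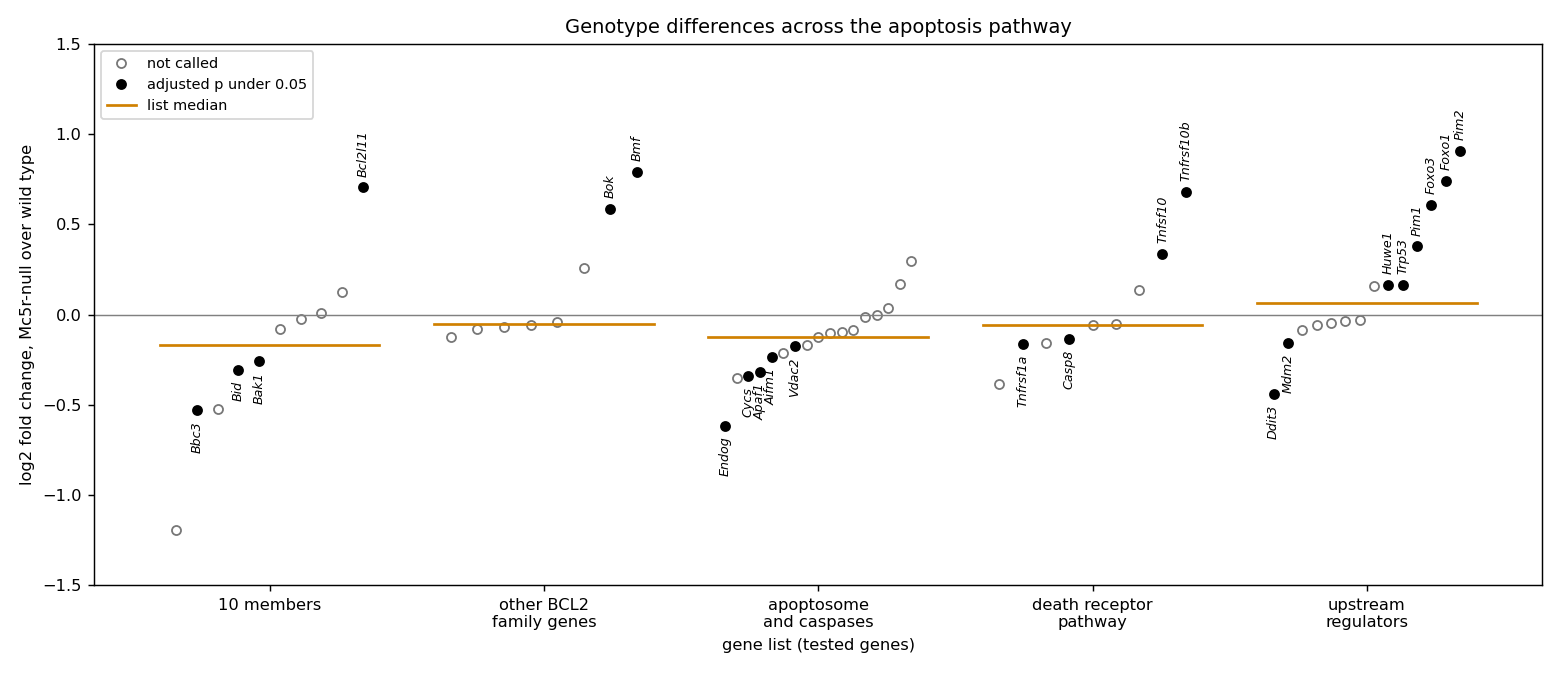
Log2 fold change of Mc5r-null over wild type for every tested gene in 5 lists, the 10 members and 4 lists of related genes, with filled points and names for genes at an adjusted p under 0.05 and a line for each list's median. Called genes of the apoptosome and caspase list lie below 0, and those of the other BCL2 family genes above it. Over all genes tested, 16.8% were called higher and 16.1% lower.

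The libraries differed in more than this family. Mc5r had 0, 0 and 1 counts in the Mc5r-null libraries and 181, 157 and 198 in the wild-type libraries, which fits their labels. Count totals were 13983016 to 14076870 in Mc5r-null and 14903723 to 14953169 in wild type. The gate's own markers were present. Kit, at 255 to 264 normalised CPM in Mc5r-null and 236 to 241 in wild type, was called higher (edgeR adjusted p = 0.00403). Ly6a, which encodes Sca-1, was at 60.6 to 78.6 in Mc5r-null and 46.6 to 65.1 in wild type and was not called (edgeR adjusted p = 0.446). Beside the calls of Bcl2l11, Bbc3, Bid and Bak1, markers of cell types moved with genotype. Markers of plasma cells, which the lineage gate is meant to exclude, were higher for 8 of 8 genes, with a summed level of 3022 to 6056 normalised CPM in Mc5r-null and 1937 to 1989 in wild type. The wide Mc5r-null range came mostly from Jchain, at 5680, 5587 and 2644 normalised CPM in that genotype. Erythroid markers were higher for 8 of 9 (173 to 175 normalised CPM in Mc5r-null, 26.8 to 28.1 in wild type).

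Markers of long-term stem cells were higher for 6 of 7 genes (216 to 222 normalised CPM in Mc5r-null, 122 to 158 in wild type). Multipotent and lymphoid progenitor genes were higher for 3 of 5 (1881 to 1919 in Mc5r-null, 1295 to 1360 in wild type). Granulocyte and monocyte progenitor markers were lower for 7 of 7 (9065 to 9463 in Mc5r-null, 14004 to 14993 in wild type), mature neutrophil markers for 5 of 6, with 1 higher (2575 to 2658 in Mc5r-null, 3483 to 3733 in wild type), and basophil and mast cell markers for 5 of 5 (101 to 108 in Mc5r-null, 316 to 325 in wild type). B cell markers were 2 higher and 3 lower of 6 (137 to 141 in Mc5r-null, 113 to 116 in wild type). T and NK cell markers were 2 higher and 1 lower of 3 tested (250.03 to 252 in Mc5r-null, 292 to 296 in wild type), with Cd3d and Cd3g under 1 normalised CPM in every library. Most of that sum was Nkg7, with means of 207 in Mc5r-null and 265 in wild type, while Cd3e and Lck were higher. Stromal and endothelial markers were 2 higher and none lower of 4 tested (104 to 112 in Mc5r-null, 98.7 to 103 in wild type), with Lepr at 0. Here Pecam1 gave most of the sum, with means of 94.9 in Mc5r-null and 95.4 in wild type, and was not called. Kdr and Sparc were the higher genes. The part of these shifts in the members' differences was not tested. In such bulk samples, fewer cells of a type and less RNA per cell cannot be told apart.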

How the data were processed

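The authors deposited 1 table with whole-number counts per gene and FPKM values for each of 6 libraries. Tools listed in the submitters' processing notes, without roles, are CASAVA 1.8, HISAT2, StringTie and edgeR, with GRCm38 as build. The counting program, its annotation and its use of strand are not given in the sources used here. In 13051 genes with at least 20 counts in every library, 100% of FPKM values followed count over library total within a tolerance of 0.001. The deposited FPKM values thus add only a fixed factor for each gene, taken as its length and not checked. All 10 members have the same coordinates in GENCODE mouse release 21.

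Counts were tested in R 4.3.3 with edgeR 4.0.16 (filterByExpr with a minimum count of 10 and total of 15, TMM, robust quasi-likelihood test, Benjamini-Hochberg over all genes tested). Standard errors are the fold change over the square root of F. The fit was tested on simulated data. Alternatives were RLE and upper-quartile scaling, DESeq2 1.42.0, limma-voom (limma 3.58.1), the replicate number as a block, no filter, a filter of 1 CPM in 3 libraries, removal of immunoglobulin genes, a threshold of 0.01, and leaving out each library.

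The members, the gene lists and the tests were chosen with earlier results of these data known. Named genes are all members, up to 6 called genes of each other list by smallest p, genes without a count and Mc5r. Trp53, Mdm2, Bcl2l13, Casp9, Diablo, Pim3, Fbxw7, Usp9x, Kit and Ly6a, and those in the last part, were named after their values were seen. The SDs given for counting alone cover counting error only, whereas the 95% intervals are those of the edgeR fit.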

Additional observations from a re-analysis of the deposited data

How the results depend on the processing

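The members' own calls, 1 higher and 3 lower, were the same under every alternative run, except that without wild-type replicate 1 there were 4 lower, Bcl2l1 being added. Leaving out 1 library gave log2 fold changes of -0.71 to -0.36 for Bcl2l1, 0.074 to 0.16 for Bcl2, -0.18 to 0.13 for Bad and -0.15 to 0.018 for Bax. Bad turned to -0.07 without Mc5r-null replicate 2 and to -0.18 without wild-type replicate 1, and Bax to 0.018 without wild-type replicate 3. The cause was not tested. DESeq2 called 1656 of all genes higher and 1446 lower, against 2567 and 2456 with edgeR. It called 1 other BCL2 family gene higher, 0 death receptor genes lower, 5 upstream regulators higher, against 6, and 1 lower; Trp53 and Mdm2 were those lost. A threshold of 0.01 gave 1552 higher and 1444 lower among all genes, 1 other family gene higher, 3 apoptosome and caspase genes lower, 0 death receptor genes lower, 5 upstream regulators higher and 1 lower, by its own construction. Limma-voom gave 1 apoptosome and caspase gene higher. Leaving out 1 library gave 1 to 2 other family genes higher, 0 to 1 apoptosome and caspase genes higher, 1 to 2 death receptor genes lower and 1 to 2 upstream regulators lower.

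Equal replicate numbers gave no sign of pairing: the correlations of deviations were 0.00255, -0.0408 and -0.0240 over 15257 genes, and no Mc5r-null library correlated best with its own number. The labels do not say whether libraries were paired, and these values cannot exclude it. With the replicate number as a block, 2254 genes were higher and 2148 lower. The members stayed at 1 higher and 3 lower, 1 other family gene was higher, and 1 apoptosome and caspase gene was higher. Depth limits the low members most: counting alone gives an SD of 7.68% for Bcl2l1 in Mc5r-null and 1.03% for Mcl1.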

Other observations

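Pmaip1 was not alone in its uneven libraries. Of 10784 genes with a mean count of at least 100, 307 (2.85%) had a spread of at least 2-fold between libraries of 1 genotype, 210 in Mc5r-null and 184 in wild type. In the lists read here these were Pmaip1, Bcl2l2, Xiap and the plasma cell gene Jchain. Bcl2l2, which encodes the anti-apoptotic protein BCL-W, had 443, 444 and 103 counts in Mc5r-null and 362, 390 and 422 in wild type. Xiap, an inhibitor of caspases, had 374, 238 and 906 counts in Mc5r-null and 979, 439 and 251 in wild type. The library that stood apart was thus replicate 3 of Mc5r-null for Bcl2l2 and replicate 1 of Mc5r-null for Pmaip1. Neither Bcl2l2 nor Xiap was called (edgeR adjusted p = 0.899 and 0.992). Across all genes with at least 20 counts in a pair of libraries, the median chi-square between 2 libraries of 1 genotype was 0.673 to 0.701 in Mc5r-null and 0.711 to 0.720 in wild type, while the mean was 6.49 to 8.37 in Mc5r-null and 6.12 to 6.66 in wild type. Counting noise alone gives a mean near 1 and a median below that. Medians under 1 therefore do not show a spread smaller than counting noise.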
